A study of Mus musculus with 6 samples.

Results

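The structural genes of the sarcomere, the Z-disc and the costamere were examined in the ventricular apex of the heart of transgenic mice. The set comprised 36 genes chosen by function, and all 36 were measured, among 18193 genes on the array. Each gene was read from its brightest probe set, the one with the highest mean over all arrays among probe sets with exactly 1 gene symbol. Where a gene had several probe sets, the others served as a check.

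The groups were PR-M expressing mice (3 arrays) and PR-M non-expressing mice (3 arrays), where PR-M is a human progesterone receptor of the mitochondrion carried as a transgene. Both groups had received 2.5 mg of progesterone in oil under the skin for 19 to 21 days, so the comparison is between the groups under the hormone. The labels used here give neither the promoter of the transgene nor the strain, age or sex, and do not say whether each array is a separate animal, so the spread between arrays may be technical in part. Expression of the transgene itself was not analysed here. Values are log2 expression values from Affymetrix Mouse Genome arrays, and every difference is expressing minus non-expressing.

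The contracting unit of heart muscle, the sarcomere, is built from thick myosin filaments that slide along thin actin filaments. Titin spans it from the Z-disc to the middle as a spring, the M-band ties the thick filaments together at the middle, and the Z-disc anchors the thin filaments at each end. Desmin filaments link neighbouring Z-discs, and costameres tie the outermost Z-discs to the cell membrane and the matrix outside through the dystrophin and integrin complexes. Inherited defects in many of these proteins cause cardiomyopathy in people.

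No difference of a structural transcript passed the test, and the share of transcripts that separated the groups was near that of all genes. None of the 36 genes passed the test over all genes (limma, adjusted p under 0.05), where 0.0660% of all genes passed, and the lowest adjusted p was 0.201, for Pdlim3. At an unadjusted p under 0.05 there were 6 of the 36, or 16.7%, against 11.4% of all genes. Of these 6, Pdlim3 and Nebl had higher values in the expressing group, where 4.85% of all genes were, and Mypn, Ldb3, Lmod2 and Pdlim5 lower ones, where 6.56% of all genes were. The count of 6 became 3 when expressing replicate 3 was left out, and also when non-expressing replicate 2 was. The 2 groups did not overlap in 8 of the 36 genes (22.2%), beside 19.0% of all genes. The non-overlapping values were higher in the expressing arrays for 2 genes, beside 8.16% of all genes, and lower for 6, beside 10.8%. These shares lie near those of the array as a whole.

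The median size of the differences was near that of all genes as well. In all, 16 genes had a positive and 20 a negative difference, with a median of -0.01, and the median over all genes was -0.02. The size of the difference was under 0.1 on the log2 scale for 20 genes, and its median size was 0.08, against 0.09 over all genes. The 95% interval of the difference lay within a 1.5-fold change in either direction for 33 of the 36 genes (91.7%, against 93.5% of all genes) and within a 1.2-fold change for 15 of them (41.7%, against 29.3%). The 3 genes whose interval reached past 1.5-fold were Pdlim3, Tpm2 and Myot. Among genes with a mean above 11, the interval lay within 1.2-fold for 52.2% of 23 structural genes, against 43.8% of all 793. The groups did not overlap in 17.4% of these bright structural genes, against 26.9% of all bright genes. The probe sets of 5 genes, Tnnt2, Tnni3, Tnnc1, Tpm1 and Mb, were above 14 on every array, close to the highest value of 14.77 in the table. A change of such a gene would hardly show on these arrays, and a narrow interval there does not measure how steady the transcript was.

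**Figure D1:**
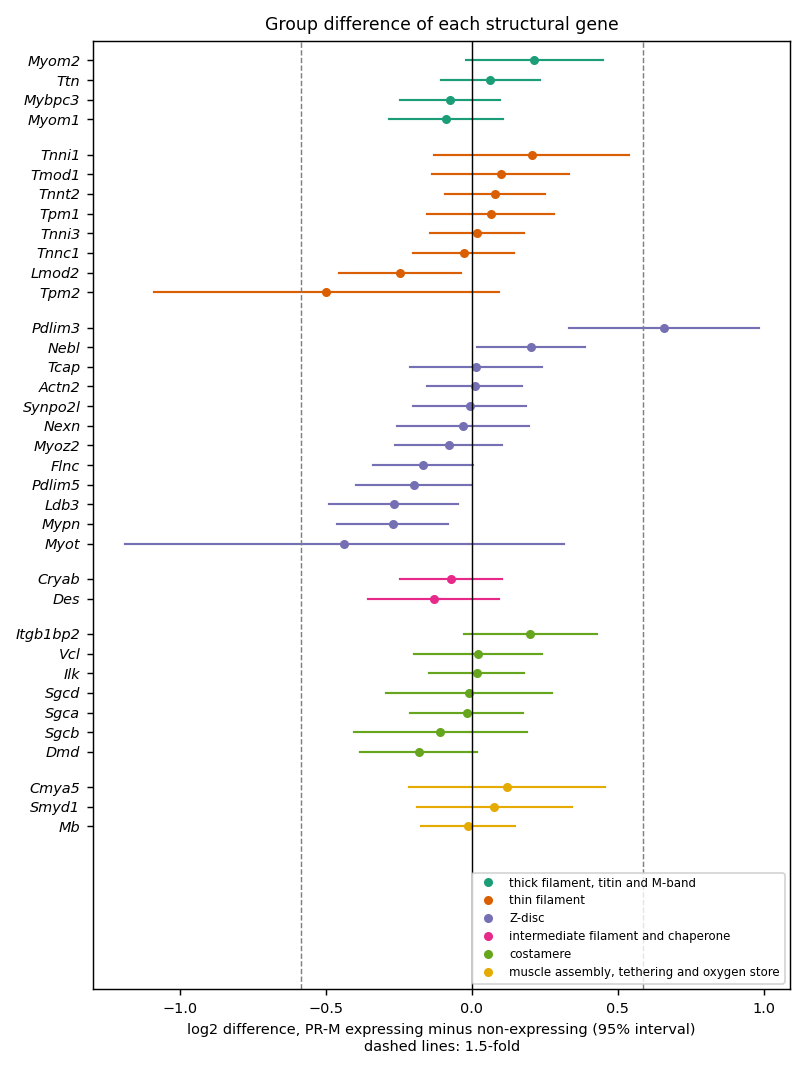
Log2 difference (expressing minus non-expressing, horizontal axis) of each of the 36 structural genes, with its 95% interval from limma, grouped and coloured by compartment; dashed lines mark 1.5-fold. The intervals of 30 genes include 0, and those of Pdlim3, Tpm2 and Myot reach past the dashed lines.

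In the thick filament, titin and M-band compartment the 4 genes had differences between -0.09 and 0.21, 2 of each sign, and none passed the test. Ttn, the gene of titin, was at 13.996, 13.93 and 13.97 in the expressing arrays, against 13.93, 13.94 and 13.85 in the non-expressing arrays. The groups overlapped, with a difference of 0.06 (95% interval -0.10 to 0.23, adjusted p 0.778). Mybpc3, cardiac myosin-binding protein C, which regulates cross-bridges on the thick filament, was at 13.24, 13.23 and 13.29 in expressing and 13.38, 13.34 and 13.26 in non-expressing arrays. Its difference was -0.07 (interval -0.24 to 0.10, adjusted p 0.742), and non-expressing replicate 3 lay among the expressing values.

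The 2 myomesin genes, whose proteins cross-link thick filaments at the M-band, had differences of opposite sign. Myom1 had 12.29, 12.18 and 12.28 in the expressing group, against 12.46, 12.28 and 12.27 in the non-expressing group, so that only non-expressing replicate 1 stood above the rest. Its difference was -0.09 (interval -0.28 to 0.11, adjusted p 0.721), or -0.03 without that array. Myom2 had 13.20, 13.26 and 13.38 in the expressing group, against 13.23, 12.89 and 13.07 in the non-expressing group. Here non-expressing replicate 1 lay within the expressing range and replicates 2 and 3 below it, with a difference of 0.21 (interval -0.02 to 0.45, adjusted p 0.466). It was 0.30 without replicate 1 and 0.13 without replicate 2 of the non-expressing group. The next probe sets of Myom2 by brightness, 1450917_at and 1438175_x_at, showed no overlap between the groups, with differences of 0.41 (adjusted p 0.264 over all probe sets) and 0.29 (adjusted p 0.322).

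The thin filament genes held the tropomyosins, the troponin complex that confers calcium control, and the proteins of the pointed end. Of these 8 genes 5 had positive and 3 negative differences, with a median of 0.04, which was 0.01 without non-expressing replicate 1 or without replicate 3. Lmod2, leiomodin 2, which lets thin filaments lengthen at the pointed end, was at 12.52, 12.64 and 12.59 in the expressing arrays, against 12.78, 12.98 and 12.72 in the non-expressing arrays. All 3 expressing values lay below the lowest non-expressing one. The difference of -0.25 (SE 0.09, interval -0.46 to -0.04), a 1.19-fold change, did not pass (adjusted p 0.382). Tmod1, tropomodulin 1, which caps the same end, was at 11.84 ± 0.05 in expressing and 11.74 ± 0.19 in non-expressing arrays (SD, n = 3 each), with a difference of 0.10 (interval -0.14 to 0.33, adjusted p 0.748), or -0.0076 without non-expressing replicate 1.

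Tpm2, beta-tropomyosin, had the most negative difference of the 36 genes and one of the widest intervals. Its values were 8.45, 8.99 and 8.93 in the expressing group, against 8.69, 9.79 and 9.37 in the non-expressing group. Non-expressing replicate 1 lay within the expressing range, and replicates 2 and 3 lay above it. The difference was -0.50 (SE 0.26, interval -1.09 to 0.09, adjusted p 0.496). The other 3 Tpm2 probe sets also had negative differences, from -0.70 to -0.41, and none passed. The brightest probe set gave -0.33 without expressing replicate 1, -0.79 without non-expressing replicate 1 and -0.24 without non-expressing replicate 2, and none of these passed (adjusted p 0.785, 0.157 and 0.775).

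The troponin genes of the adult heart were near the top of the scale in both groups. Tnnt2, cardiac troponin T, was at 14.41, 14.38 and 14.40 in expressing and 14.38, 14.25 and 14.32 in non-expressing arrays, with a difference of 0.08 (interval -0.09 to 0.25, adjusted p 0.717). The differences of Tnni3, cardiac troponin I, and of Tnnc1, troponin C, were 0.02 and -0.03, with adjusted p of 0.945 and 0.915. Tnni1, slow skeletal troponin I, the form that the fetal heart uses before Tnni3, was dim, at 6.02, 5.57 and 6.02 in the expressing arrays, against 5.72, 5.83 and 5.44 in the non-expressing arrays. The groups overlapped, with a difference of 0.20 (interval -0.13 to 0.54, adjusted p 0.620), and the values lay around the median of the whole table, 5.78. Leaving out expressing replicate 2 gave Tnni1 a difference of 0.35, and leaving out non-expressing replicate 3 gave 0.09. Tpm1, alpha-tropomyosin, differed by 0.06 (adjusted p 0.833) at its brightest probe set.

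**Figure D2:**
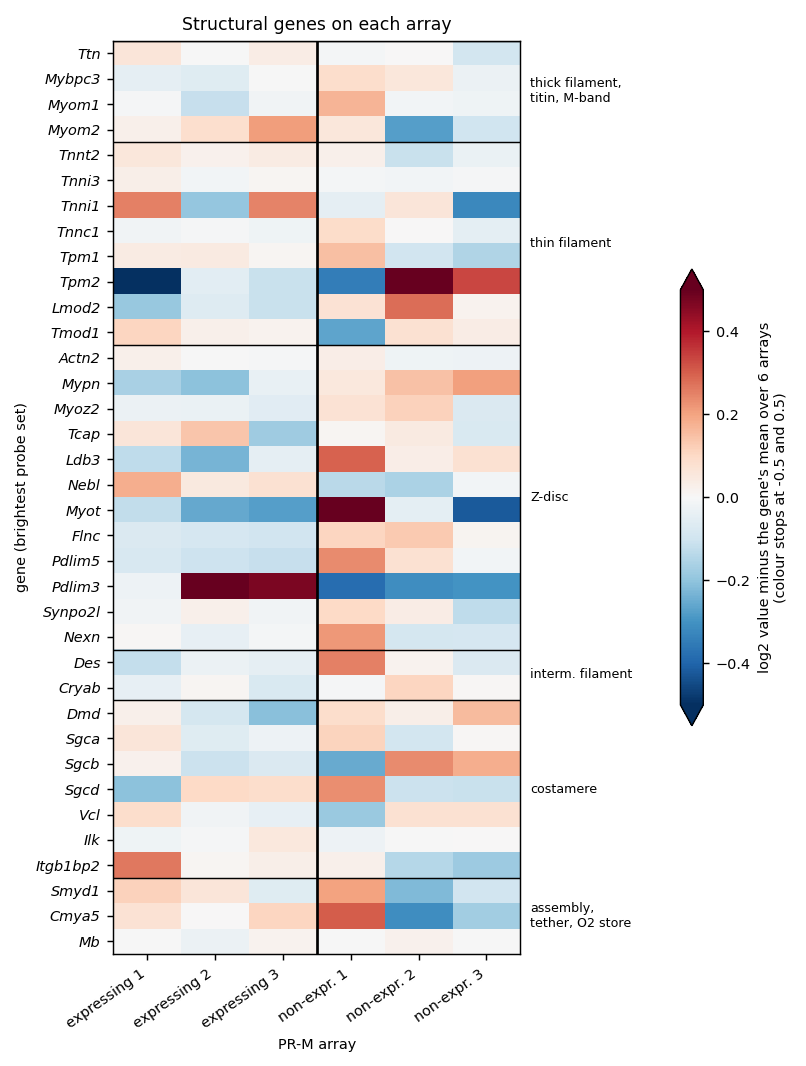
Deviation of each structural gene from its own mean over the 6 arrays (log2 units, red above and blue below; the colour stops at -0.5 and 0.5), with genes in rows by compartment and the 3 expressing arrays left of the 3 non-expressing arrays. Non-expressing replicate 1 is the highest of the 6 arrays in 15 of the 36 genes (41.7%, against 23.7% of all genes), among them Myot, Ldb3 and Des. Non-expressing replicate 3 is the lowest in 9 (25%, against 10.1% of all genes).

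The Z-disc compartment, with 12 genes, held 6 of the 8 whose groups did not overlap and 5 of the 6 at an unadjusted p under 0.05. These are 50% of the compartment, beside 19.0% of all genes, and 41.7%, beside 11.4% of all genes. Differences ran in both directions, 4 positive and 8 negative, with a median of -0.05, which was -0.11 without non-expressing replicate 3 and 0.02 without non-expressing replicate 1. The median size of the difference was 0.18 in this compartment, against 0.09 over all genes. Among 18 other Z-disc genes measured, the groups did not overlap in 27.8%, and 5.56% had an unadjusted p under 0.05. Members and lists were chosen with earlier results of these data known, so none of these shares is a test. Pdlim3, which encodes the alpha-actinin-associated LIM protein, had the largest difference of the 36 genes, at 7.96, 8.53 and 8.46 in expressing arrays, against 7.60, 7.68 and 7.69 in non-expressing arrays. Every expressing value exceeded every non-expressing one, although expressing replicate 1 lay well below the other two. The difference was 0.66 (SE 0.14, interval 0.33 to 0.98), a 1.58-fold change, and it did not pass over all genes (adjusted p 0.201). Without expressing replicate 1 it was 0.84 and passed (adjusted p 0.0431), and the adjusted p was 0.394 where samples with the same title prefix formed a random block. Pdlim3 has a single probe set on the array.

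Mypn, myopalladin, which binds alpha-actinin and nebulin-like proteins, was lower, at 10.82, 10.78 and 10.95 in expressing and 11.04, 11.13 and 11.19 in non-expressing arrays. The groups did not overlap, and the difference was -0.27 (SE 0.08, interval -0.46 to -0.08, adjusted p 0.337). Its other probe set, 1441551_at, differed by -0.19. Ldb3, the PDZ and LIM protein also called cypher, was at 12.47, 12.36 and 12.55 in the expressing group, against 12.89, 12.63 and 12.67 in the non-expressing group. Without overlap, it differed by -0.27 (SE 0.10, interval -0.49 to -0.05, adjusted p 0.370). One of its other probe sets, 1451999_at, differed by -0.29 without overlap, and the other, 1433783_at, by 0.03.

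Promoter sequence of these 3 genes is shown because they had the lowest p of all members, so that the control elements next to their starts can be read. Each run is the 250 bases before the RefSeq start of the gene in the mouse build GRCm38.p6, 5′ to 3′ on the strand of the gene. Capitals mark matches, on either strand, to 5 elements: the MEF2, CArG and MCAT elements known from muscle promoters, the GATA element and the TATA box. MCAT was searched as CATTCC. The GATA element was searched as AGATAA. For the TATA box the letters were TATAAA.
Pdlim3 (chr8:45885237-45885486, + strand): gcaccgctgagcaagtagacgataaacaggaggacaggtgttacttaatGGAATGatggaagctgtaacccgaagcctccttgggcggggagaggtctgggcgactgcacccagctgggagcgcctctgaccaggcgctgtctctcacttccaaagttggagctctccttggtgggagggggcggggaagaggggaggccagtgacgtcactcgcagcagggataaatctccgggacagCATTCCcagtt
Mypn (chr10:63203953-63204202, - strand): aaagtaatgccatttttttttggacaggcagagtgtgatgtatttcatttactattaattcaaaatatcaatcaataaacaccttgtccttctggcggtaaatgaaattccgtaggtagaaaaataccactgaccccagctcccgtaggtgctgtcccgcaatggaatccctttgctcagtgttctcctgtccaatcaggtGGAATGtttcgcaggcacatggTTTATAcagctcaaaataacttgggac
Ldb3 (chr14:34588682-34588931, - strand): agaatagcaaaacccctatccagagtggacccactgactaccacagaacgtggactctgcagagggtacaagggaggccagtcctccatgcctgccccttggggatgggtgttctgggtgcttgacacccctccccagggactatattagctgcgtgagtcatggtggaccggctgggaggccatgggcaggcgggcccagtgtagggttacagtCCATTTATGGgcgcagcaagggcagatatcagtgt

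The Pdlim3 window held 2 MCAT matches, the Mypn window 1 MCAT and 1 TATA box match, and the Ldb3 window 1 CArG match. Within each window these matches did not overlap. RefSeq also lists another start of Ldb3, not shown, whose window held the same CArG match. RefSeq windows were matched to 30 of the 36 genes, 43 windows in all. CArG letters stood in 14% of these windows against 1.47% of all 32851 windows of the same length. MEF2 letters stood in 14% against 2.92%, MCAT letters in 23.3% against 12.6%, and GATA letters in 11.6% against 9.99%. By gene, CArG and MEF2 letters were each found for 5 of the 30, MCAT letters for 10 and GATA letters for 4. Windows of a gene can overlap, and the CArG match of Ldb3 counts in both of its windows. The TATA box was found in 11.6% of the member windows and 12.4% of all windows, and the E-box, searched as CANNTG and not marked above, in 69.8% and 66.2%. The letters of a MEF2 match can include a TATA box, and an MCAT match can end in the first letters of a CArG match. A match is a description of the letters and not a site.

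Further Z-disc genes lay at or near the unadjusted threshold. Nebl, nebulette, the heart's short relative of nebulin, was at 11.89, 11.75 and 11.78 in expressing arrays, against 11.57, 11.55 and 11.69 in non-expressing arrays. The groups did not overlap, with a difference of 0.20 (SE 0.08, interval 0.02 to 0.39, adjusted p 0.405). The other Nebl probe sets, both dimmer, differed by -0.05 and -0.07. Pdlim5, also known as enigma homologue, was at 13.20, 13.18 and 13.17 in the expressing arrays, against 13.52, 13.36 and 13.27 in the non-expressing arrays, with a difference of -0.20 (SE 0.09, adjusted p 0.433), or -0.13 without non-expressing replicate 1. Its other 6 probe sets had differences from -0.17 to 0.16, of both signs. At the brightest one the expressing values were tightly grouped below the lowest non-expressing value.

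Flnc, filamin C, an actin cross-linker of the Z-disc and the costamere, was at 10.09, 10.07 and 10.06 in expressing and 10.26, 10.29 and 10.17 in non-expressing arrays. Its groups did not overlap either, and both of its probe sets were lower in the expressing group, with differences of -0.17 (SE 0.07, adjusted p 0.445) and -0.23. Myot, myotilin, an actin-bundling Z-disc protein, was at 8.81, 8.68 and 8.66 in the expressing group, against 10.06, 8.88 and 8.51 in the non-expressing group. The difference of -0.44 (interval -1.19 to 0.32, adjusted p 0.640) was 0.02 without non-expressing replicate 1.

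The remaining Z-disc genes had differences between -0.08 and 0.01. Actn2, alpha-actinin 2, the main cross-linker of thin filaments at the Z-disc, was at 12.88, 12.85 and 12.85 in expressing and 12.89, 12.83 and 12.83 in non-expressing arrays, with a difference of 0.01 (interval -0.15 to 0.17). Tcap, telethonin, which caps titin at the Z-disc, differed by 0.01 (interval -0.21 to 0.24), and Myoz2, calsarcin 1, which binds calcineurin there, by -0.08 (interval -0.26 to 0.11). The differences of Synpo2l and of Nexn, the actin-binding protein nexilin, were -0.01 and -0.03. The adjusted p of these 5 genes lay between 0.743 and 0.984.

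**Figure D3:**
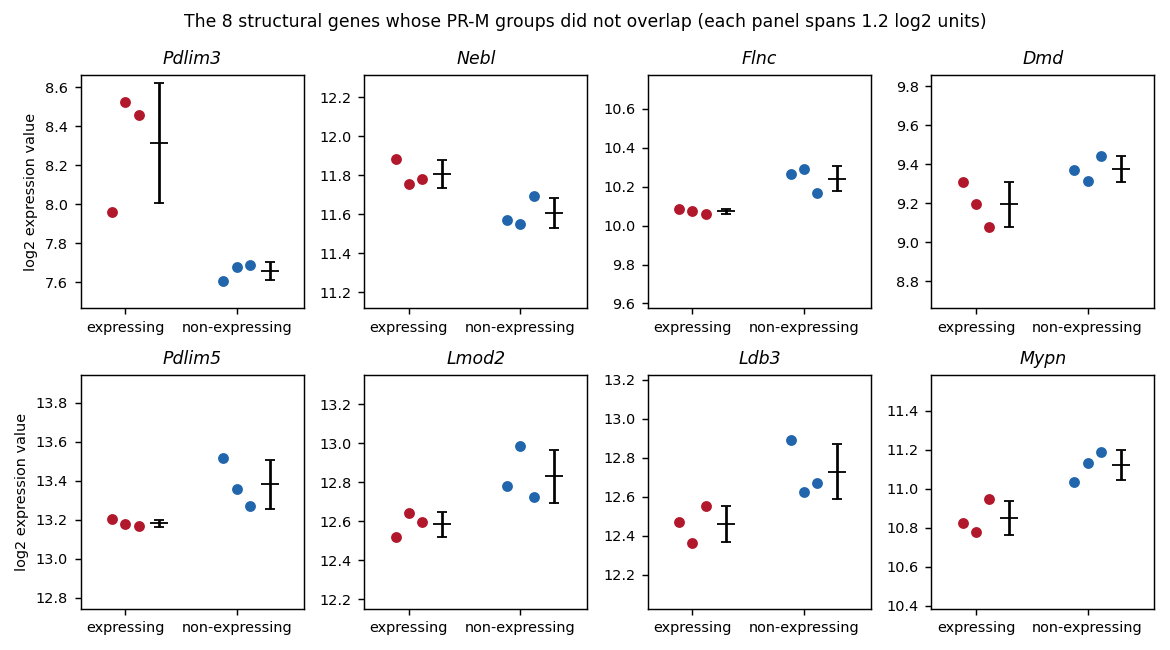
Log2 expression values (vertical axis, 1 point per array) of the 8 structural genes whose groups did not overlap, expressing (red) left of non-expressing (blue), with the mean and SD of each group in black and the same span of 1.2 log2 units in each panel. Pdlim3 has the widest gap between group means, 0.66, and none of the 8 passed the test over all genes.

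Des, the gene of desmin, and Cryab, alpha B-crystallin, a small heat shock protein that protects desmin filaments, both had slightly negative differences. Des was at 11.79, 11.88 and 11.87 in expressing arrays, against 12.16, 11.93 and 11.84 in non-expressing arrays. Only non-expressing replicate 1 stood clearly above the rest, and the difference was -0.13 (interval -0.36 to 0.09, adjusted p 0.639), or -0.04 without that array. Cryab was at 13.77, 13.82 and 13.74 in expressing and 13.81, 13.92 and 13.82 in non-expressing arrays, a difference of -0.07 (interval -0.24 to 0.10, adjusted p 0.754) with overlap.

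In the costamere, 3 of 7 genes had positive and 4 negative differences, with a median of -0.01. Dmd, dystrophin, which links actin to the membrane complex, was at 9.31, 9.20 and 9.08 in the expressing arrays, against 9.37, 9.31 and 9.44 in the non-expressing arrays. The groups just failed to overlap, and the difference was -0.18 (SE 0.09, interval -0.38 to 0.02, adjusted p 0.467). The sarcoglycans, membrane partners of dystrophin, had smaller differences. Sgcb was at 9.95, 9.82 and 9.86 in expressing and 9.68, 10.17 and 10.11 in non-expressing arrays, so that the expressing values lay between the non-expressing ones. Without non-expressing replicate 1 its difference was -0.26 (adjusted p 0.229), and without non-expressing replicate 2 it was -0.02. Sgcb differed by -0.11 (interval -0.40 to 0.19), Sgca by -0.02 (interval -0.21 to 0.18) and Sgcd by -0.01 (interval -0.30 to 0.27), and Sgcd was below the median of the table on every array.

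On the integrin side of the costamere, Itgb1bp2, melusin, a muscle protein that binds the integrin beta 1 tail, was at 11.45, 11.20 and 11.22 in expressing arrays, against 11.21, 11.05 and 11.01 in non-expressing arrays. Non-expressing replicate 1 reached the expressing range, and the difference was 0.20 (SE 0.10, interval -0.03 to 0.43, adjusted p 0.479), or 0.12 without expressing replicate 1. Ilk, integrin-linked kinase, was at 9.53, 9.54 and 9.60 in expressing and 9.52, 9.55 and 9.55 in non-expressing arrays, a difference of 0.02 (interval -0.15 to 0.18, adjusted p 0.954). Vcl, vinculin, which couples adhesion sites to actin, also differed by 0.02 (interval -0.20 to 0.24).

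Smyd1, Cmya5 and Mb complete the set. Smyd1, a methyltransferase needed for sarcomere assembly, was at 10.96, 10.90 and 10.78 in expressing and 11.04, 10.62 and 10.74 in non-expressing arrays (difference 0.08, interval -0.19 to 0.34). Cmya5, myospryn, a desmin-binding protein, was at 11.52, 11.45 and 11.56 in expressing arrays, against 11.75, 11.14 and 11.28 in non-expressing arrays (difference 0.12, interval -0.22 to 0.46). In both genes the expressing values lay inside the non-expressing range. Without non-expressing replicate 1 the differences were 0.20 for Smyd1 and 0.30 for Cmya5 (adjusted p 0.378 and 0.197), and without non-expressing replicate 2 they were -0.01 and -0.0049. Mb, myoglobin, the oxygen store of muscle, was at 14.75, 14.72 and 14.77 in expressing and 14.75, 14.77 and 14.75 in non-expressing arrays, at the top of the scale of the table. The adjusted p of these 3 genes lay between 0.791 and 0.967.

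Several probe sets read 18 of the 36 genes, with 46 probe sets beside the brightest ones. None of the 46 passed over all probe sets, where 0.0133% passed. At an unadjusted p under 0.05 there were 7 of the 46, beside 12.2% of all probe sets, and in 10 the groups did not overlap, beside 18.6% of all. Of the 46, 26 had the same sign as the brightest probe set of the gene. All other probe sets of Mypn, Flnc, Des, Cryab, Myom2, Tnnt2, Tpm2 and Mb had that sign, and those of Dmd, Nebl and Vcl had the opposite one. Ttn, with 5 other probe sets, had differences of both signs, from -0.17 to 0.26, and so did Smyd1, with 5 from -0.17 to 0.06. Of the 46, 13 had a mean below the median of the table, where a difference between groups is hard to read.

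The widest range of differences was among the probe sets of Tpm1. Its probe set 1456623_at was at 7.88, 7.28 and 7.80 in the expressing arrays, against 7.04, 6.37 and 6.18 in the non-expressing arrays. The groups did not overlap, and the difference was 1.12 (SE 0.23, interval 0.60 to 1.65, adjusted p 0.159), a 2.18-fold change. The other 3 Tpm1 probe sets differed by -0.02 to 0.13. Whether 1456623_at reads a particular transcript of Tpm1 cannot be told from the table used here.

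Whether 2 probe sets of a gene differed in their group difference was tested over all 16752 pairs of a gene's brightest and another probe set. None of the 46 pairs of the structural genes passed, where 0.0716% of all pairs passed, and 10 were at an unadjusted p under 0.05, beside 12.6% of all pairs. For Tpm1 the brightest probe set minus 1456623_at gave -1.06 (interval -1.50 to -0.62, adjusted p 0.125), between -1.25 and -0.95 over the alternatives tried. The brightest Tpm1 probe set was above 14 on every array, where a change would hardly show, so this value does not measure how far the probe sets disagree. For Dmd the brightest minus 1430320_at, a dim probe set between 3.35 and 3.87 on all arrays, gave -0.51 (adjusted p 0.143). The probe set 1440424_at of Tnnt2, at 8.96, 8.25 and 8.70 in expressing and 8.23, 8.17 and 7.99 in non-expressing arrays, differed by 0.51 (adjusted p 0.30) without overlap, and the brightest minus this one gave -0.43 (adjusted p 0.354). The same limit holds there, since the brightest Tnnt2 probe set was also above 14 on every array.

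**Figure D4:**
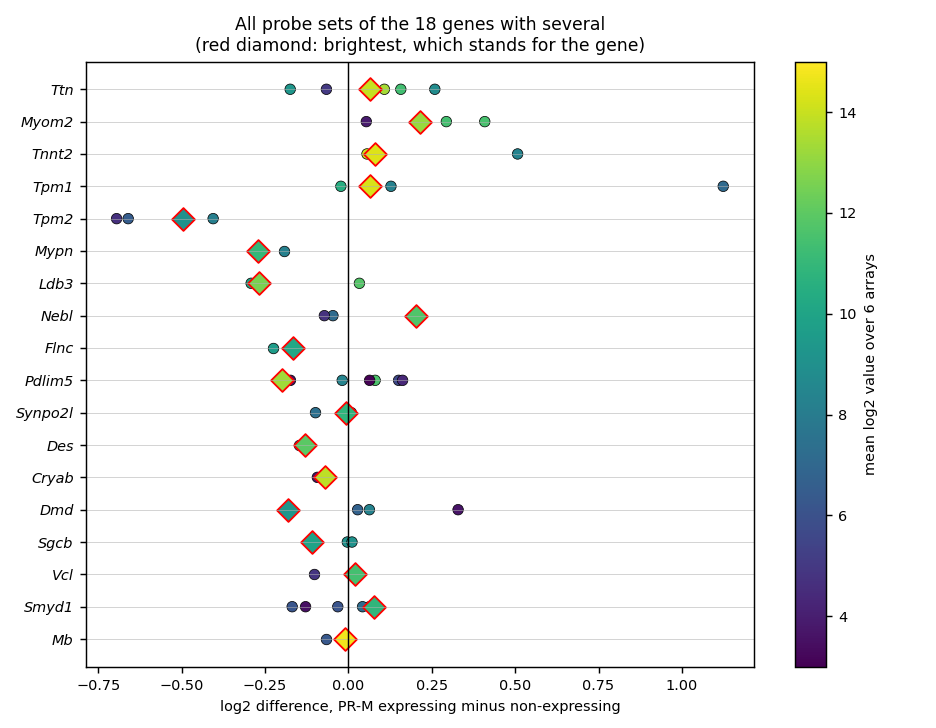
Log2 difference (expressing minus non-expressing, horizontal axis) of every probe set of the 18 structural genes that have several, coloured by the mean log2 value over the 6 arrays; red diamonds mark the brightest probe set of each gene. One probe set of Tpm1 lies at 1.12 while the other Tpm1 probe sets lie between -0.02 and 0.13.

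Other genes of the same compartments, from a list of 89 of which 78 were measured, gave shares near those of all genes when pooled. None passed over all genes (lowest adjusted p 0.331), 36 had positive and 42 negative differences, and the median was -0.02. At an unadjusted p under 0.05, 6 had higher and 2 lower values in the expressing group, 10.3% in all against 11.4% of all genes. The groups did not overlap in 15 of the 78, or 19.2%, against 19.0%. For the Z-disc alone the shares of these other genes and of the 12 structural genes were not alike. They were 5.56% against 41.7% at that p, and 27.8% against 50% without overlap. The members and lists were chosen with earlier results of these data known, so this contrast is not a test. With the second brightest probe set, Ldb3, Nebl and Pdlim5 had differences of the opposite sign, 0.03, -0.05 and 0.08.

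The lowest p of this list belonged to the costamere, where Sgce, epsilon-sarcoglycan, was at 8.00, 8.07 and 8.01 in expressing and 7.67, 7.81 and 7.82 in non-expressing arrays (difference 0.26, adjusted p 0.331). Itgb1, integrin beta 1, differed by 0.25 (adjusted p 0.362), and neither gene had overlapping groups. In the thick filament and M-band, Mybphl, a myosin-binding protein C relative found mainly in atria, differed by 0.68 (adjusted p 0.403) and Myom3, the third myomesin, by -0.33 (adjusted p 0.427). In the thin filament, Tmod4, a tropomodulin of skeletal muscle, differed by 0.35 (adjusted p 0.452) and Neb, nebulin, by -0.51 (adjusted p 0.529). At the Z-disc, Flna, filamin A, differed by 0.24 (adjusted p 0.405) and Actn3, alpha-actinin 3 of fast skeletal muscle, by -0.18 (adjusted p 0.451). Among intermediate filament and chaperone genes, Vim, vimentin, which mesenchymal cells rather than heart muscle cells express, differed by 0.28 (adjusted p 0.402) and Hspb7, a small heat shock protein of heart muscle, by -0.24 (adjusted p 0.428).

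**Figure D5:**
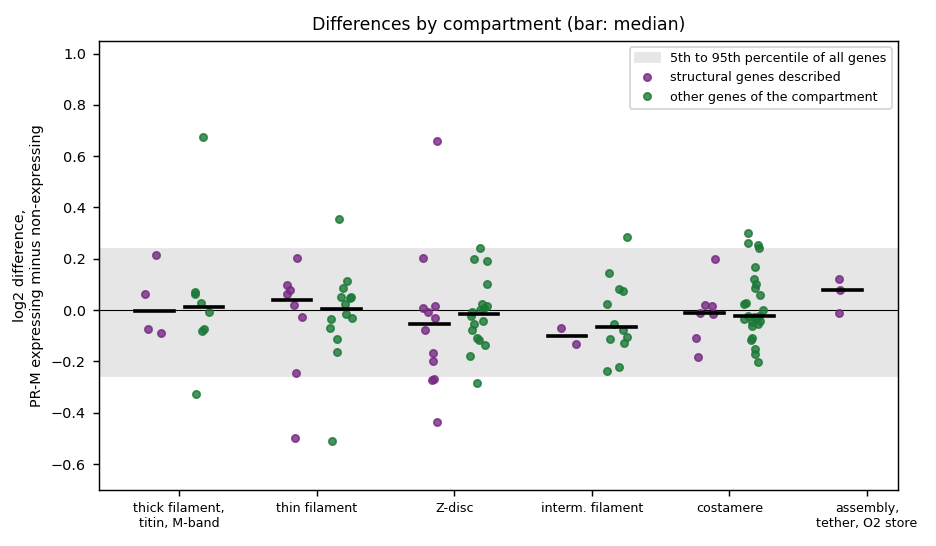
Log2 differences (expressing minus non-expressing, vertical axis) of the 36 structural genes (purple, left) and of 78 other genes of the same compartments (green, right), with black bars for medians and a grey band from the 5th to the 95th percentile of all genes, -0.26 to 0.24. Most points lie in the band, and Pdlim3 and Mybphl lie highest.

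Other measures of these arrays moved with the groups or with single arrays. In bulk tissue, fewer cells of a type and less RNA per cell cannot be told apart. For 9 markers of ventricular muscle the summed linear level overlapped, at 146885 to 152326 in expressing and 147657 to 151720 in non-expressing arrays. That sum is nearly all from Myh6, Myl2, Myl3, Pln, Atp2a2 and Actc1. These genes were above 14 on every array, so a change in the sum would hardly show. Among them, Myl3 was lower in expressing arrays without overlap (difference -0.04). Of the other 3 ventricular markers, Ryr2 and Irx4 overlapped between the groups, and Kcnj2, below the median of the table, was lower in expressing arrays without overlap (difference -0.24). The 9 atrial markers summed to 3195 to 10273 in the expressing arrays, against 1365 to 2771 in the non-expressing arrays. Of the 9, 7 were higher, Nr2f2 and Bmp10 had negative differences, and Bmp10 was below the median of the table. Sln, Myl4 and Myl7 passed the test over all genes, with differences of 3.89, 3.60 and 3.45 (limma, adjusted p 0.0451, 0.0451 and 0.0348). Nppa overlapped between the groups, with 10.74 in non-expressing replicate 1. Expressing replicate 2 had the highest atrial sum, and Pdlim3 was high in expressing replicates 2 and 3. All 8 fibroblast markers had positive differences, with sums of 24118 to 26560 in expressing and 20519 to 22613 in non-expressing arrays. The 8 smooth muscle and pericyte markers had overlapping sums, 9304 to 10101 in expressing and 9389 to 10090 in non-expressing arrays, with Cnn1 below the median of the table. Of these markers 4 had positive differences (Myh11, Acta2, Tagln and Cnn1) and 4 negative ones (Rgs5, Cspg4, Kcnj8 and Pdgfrb), and Kcnj8 was lower in expressing arrays without overlap (difference -0.20). Myh11, Acta2, Tagln, Cnn1 and Rgs5 were each lowest among expressing arrays in replicate 1, the expressing array with the lowest Pdlim3. Pdgfrb and Kcnj8 were highest in that array, and Cspg4 lay between the other expressing arrays there. Tagln was at 7.72, 8.42 and 8.79 in expressing arrays, against 7.95, 7.83 and 7.47 in non-expressing arrays, and the groups overlapped. All 11 skeletal muscle markers had negative differences, and 7 of them were below the median of the table. The 11 summed to 1089 to 1338 in expressing and 1319 to 1932 in non-expressing arrays. Most of that sum was from Casq1, whose groups overlapped. It was at 9.87, 9.90 and 9.50 in expressing and 10.57, 9.84 and 9.94 in non-expressing arrays. The part of other cells in the differences of Pdlim3, Tpm2 and the rest was not tested.

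Control probe sets for 18S ribosomal RNA were at 8.31 ± 0.22 in expressing and 9.88 ± 0.38 in non-expressing arrays (SD, n = 3 each). An exact two-sided permutation test gave p = 0.1, and no lower value is possible with groups of 3. For beta-actin, the value at the 3′ end minus that at the 5′ end, which rises as RNA breaks down, was 1.23 ± 0.05 in expressing and 1.38 ± 0.07 in non-expressing arrays (exact permutation p = 0.1). The same measure of Gapdh overlapped between the groups, at 0.171 ± 0.063 in expressing and 0.246 ± 0.073 in non-expressing arrays (SD, n = 3 each; exact permutation p = 0.3). Their part in the differences above was not tested. Non-expressing replicate 1, whose title prefix differs from that of replicates 2 and 3, was above both of them in 18 of the 36 structural genes and below both in 9, against 37.7% and 40.1% of all genes. The median SD of the structural genes was 0.06 among expressing and 0.11 among non-expressing arrays, against 0.09 and 0.10 over all genes. All expressing samples share 1 title prefix, the non-expressing samples carry 2 others, and what a prefix stands for is not stated in the labels. With a random block for each prefix, 0 of the 36 genes passed (limma), where 4 of all 18193 genes did. No prefix occurs in both groups, so the block cannot separate prefix from group, and their parts in any difference cannot be told apart.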

How the data were processed

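The authors deposited a table of log2 expression values for each probe set on each array. RMA and Partek 6.6 are named in the submitters' processing notes, with no role, order or settings. Per the labels' protocols, 500 ng of Trizol-extracted RNA was amplified for each array. At equal ranks the arrays differed by 0.155 or less, so a change shared by all genes would not show. Of 45101 probe sets, 64 controls were set aside.

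The group difference was fitted with limma 3.58.1 (lmFit and eBayes, two-sided, in R 4.3.3) over all 45037 probe sets. Genes were read from that fit through their brightest probe set and adjusted by Benjamini and Hochberg over 18193 genes, threshold 0.05. Each brightest probe set minus each other one of its gene was fitted over 16752 pairs. The fit was tested on simulated independent arrays with variances drawn from limma's own prior, which cannot check it against the real arrays. Quality values were compared by exact permutation. The members and lists were chosen with earlier results of these data known, so no test was made over a list. Every member is named, with values per array for the 4 lowest p of each compartment and for members without overlap, and the wider list is named through its 2 lowest p per compartment. Array values of Myot, Actn2 and Sgce, the Tmod1 means and single probe sets were added after their values were seen. Replicates were numbered in record order, and the number of arrays limits the precision.

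Alternatives were cyclic loess, median scaling, a filter on dim probe sets, an intensity trend with robust prior, weights per array, a random block for each title prefix (statmod 1.5.0), each array left out, other choices of probe set, and, chosen after seeing the data, a prior from the genes' probe sets alone.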

Additional observations from a re-analysis of the deposited data

How the results depend on the processing

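None of the 36 structural genes passed the test under 15 of the 16 alternatives, and between 0 and 1 passed with 1 array left out: Pdlim3 passed without expressing replicate 1 (log2 0.84, adjusted p 0.0431). At an unadjusted p under 0.05 there were between 3 and 10 members. Over all genes the count of 12 was 23 with an intensity trend and robust prior, 26 with array weights, 4 with a random block for each title prefix, 1 with the mean of a gene's probe sets, 1 with the second brightest probe set, 2 without _x_at and _s_at probe sets, 4 with a prior from the genes' probe sets only (chosen after seeing the data), and 0 to 18 with 1 array left out. Over all probe sets the count of 6 was 31 with a filter on dim probe sets, 37 with the trend, 43 with array weights and 0 to 44 with 1 array left out. For probe set pairs the count of 12 was 23 with array weights, 7 with the block and 3 to 26 with 1 array left out. The cause was not tested. With 1 array left out the median of the thin filament genes lay between 0.01257 and 0.04617 and that of the Z-disc genes between -0.10768 and 0.020207, positive without non-expressing replicate 1; with the second brightest probe set the thin filament median was -0.00217. The following members changed sign where a direction had been seen at an unadjusted p under 0.05: with the second brightest probe set Ldb3 was 0.0328, Nebl -0.0466 and Pdlim5 0.08, and with the mean of its probe sets Pdlim5 was 0.009239. In all, 41 of 574 member values changed sign, in 20 genes, and the others had no direction at that threshold. No paired analysis was possible because the labels give the samples no shared replicate numbers.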
